A study of Mus musculus with 15 samples.

Results

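The genes described here are the 3 Slit ligands Slit1, Slit2 and Slit3 and their receptors Robo1 and Robo2, 5 of the 36814 genes in the deposited count table. They were chosen by name, as the rows whose symbol equals one of these 5, and each had 1 row and passed the filter on low counts. The libraries came from spinal motor neurons of wild-type mice at postnatal day 6, in 5 motor pools of 3 libraries each. Such a pool is the group of motor neurons that supplies a given muscle. The IF pool supplied the intrinsic foot muscles, the TA pool the tibialis anterior and the EDL pool the extensor digitorum longus, while the PL and GS pools supplied the peroneus longus and the gastrocnemius. Every animal had received a fluorescent retrograde tracer, cholera toxin B, in the muscle at day 4, so all groups share that injection and no uninjected group is among them. Traced cells were cut from frozen cord sections by laser, and 30 to 40 cells from 2 to 5 animals made up a library. The study set these pools side by side, and the question asked here is whether Slit and Robo transcript levels differed among them.

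Slits are secreted proteins with leucine-rich repeats, and Robos are transmembrane receptors of the immunoglobulin superfamily. A Slit bound to a Robo repels or slows a growing axon through proteins that act on the actin skeleton. In the embryonic mouse spinal cord the pair is best known for keeping commissural axons from recrossing the midline, and Slit2 and Robos also act in the bundling of motor axons. Motor neurons make both ligand and receptor, so a library of motor neurons can hold transcripts of both sides.

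In the mm9 coordinates of the deposited table, Slit1 lies on the minus strand of chromosome 19 from 41674747 to 41818156. Slit2 lies on the plus strand of chromosome 5 from 48374394 to 48697018, and Slit3 on the plus strand of chromosome 11 from 34934726 to 35522010. The receptors share chromosome 16, where Robo1 runs on the plus strand from 72663394 to 73046341 and Robo2 on the minus strand from 73892551 to 74412071. The deposited spans of the receptors, 382947 bases for Robo1 and 519520 bases for Robo2, are shorter than the 1019974 and 1555468 bases of RefSeq. Exons outside the deposited models would not be counted.

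Promoter sequence is shown for Slit2, the ligand with the highest level, and for Slit3 and Robo1, the ligand and the receptor with the smallest p among pools. Each run is the 250 bases before a RefSeq start of the gene in GRCm38.p6, 5′ to 3′ on the gene's own strand. The runs lie at chr5:47982905-47983154, chr11:35121206-35121455 and chr16:72662899-72663148, all on the plus strand. Whether the Robo1 start used here is the outermost start of its longer RefSeq span was not checked. Capitals mark the motifs searched on both strands, which were TATAAA (the TATA box core) and TAAT (the core read by homeodomain factors, which are central to motor neuron identity).
Slit2: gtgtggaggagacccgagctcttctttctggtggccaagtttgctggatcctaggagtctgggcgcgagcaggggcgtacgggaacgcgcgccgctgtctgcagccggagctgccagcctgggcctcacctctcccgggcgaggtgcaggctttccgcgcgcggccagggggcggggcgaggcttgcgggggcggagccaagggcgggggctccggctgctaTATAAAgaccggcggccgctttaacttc
Slit3: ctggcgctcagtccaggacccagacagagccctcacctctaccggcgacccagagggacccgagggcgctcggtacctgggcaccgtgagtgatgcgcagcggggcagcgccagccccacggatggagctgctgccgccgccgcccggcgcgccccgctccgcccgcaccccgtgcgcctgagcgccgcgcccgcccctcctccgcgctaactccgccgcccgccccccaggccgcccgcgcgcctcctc
Robo1: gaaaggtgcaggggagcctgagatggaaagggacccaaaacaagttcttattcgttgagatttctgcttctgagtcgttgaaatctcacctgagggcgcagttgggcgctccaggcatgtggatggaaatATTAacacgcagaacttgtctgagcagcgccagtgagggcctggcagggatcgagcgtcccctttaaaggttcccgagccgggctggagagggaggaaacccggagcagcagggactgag
The Slit2 run held 1 TATAAA, at bases 28 to 23 before the start, a motif found in 12.4% of 32841 promoter windows of the same length. Robo1 held 1 TAAT on the minus strand, printed as ATTA, at bases 120 to 117 before the start, and 54.9% of windows held that motif. Slit3 held no match to either motif. CG dinucleotides numbered 35 in Slit3, 25 in Slit2 and 11 in Robo1, at percentiles 97.4, 90.4 and 66.5 of all windows. These matches describe the letters in the windows and nothing was measured at them.

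Total gene counts ran from 4417114 to 8488368 per library, and levels below are TMM-scaled CPM, the reads of a gene relative to its library. PL 2 and PL 3 stood apart: 25.7% and 29.2% of their tested genes had no read, beside 0.732% to 13.7% elsewhere. Motor neuron markers (Chat, Slc5a7, Prph, Mnx1, Isl1, Isl2) summed to 1663 to 3577 CPM, with 5 or 6 of the 6 genes read in each library. Markers of other cells were also read, and their sums were 908 to 3199 CPM for 7 astrocyte genes and 223 to 2343 CPM for 9 oligodendrocyte genes. Smaller sums came from 6 fibroblast and meningeal genes (6.71 to 251 CPM), 6 endothelial genes (13.1 to 684 CPM), 5 genes of inhibitory interneurons (3.56 to 364 CPM), 3 of excitatory interneurons (9.90 to 198 CPM) and 6 of microglia (1.74 to 85.2 CPM). The highest of these sums was often 1 gene, such as Cdh5 with 661.5 of the 684 CPM of endothelial genes. In such pooled samples, fewer cells of a type and less RNA per cell cannot be told apart. The part of these other cells in Slit or Robo levels was not tested.

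All 5 genes were read in every pool. Compared per length, with the authors' RPKM as the scale of level, the order was Slit2 at 12.8 ± 3.62 RPKM, Robo1 at 11.3 ± 3.85, Slit3 at 4.72 ± 2.34, Robo2 at 2.98 ± 0.955 and Slit1 at 1.55 ± 1.16 (SD over 15 libraries). Among the 14340 tested genes these means lay at percentiles 84.2, 82.0, 63.4, 51.4 and 34.8. Slit2 was thus the leading ligand and Robo1 the leading receptor. None of the 5 passed the test for a difference among the 5 pools (edgeR's quasi-likelihood F-test, Benjamini-Hochberg adjusted over all tested genes), while 1.31% of all tested genes did. Adjusted p was 0.182 for Robo1, 0.316 for Slit3, 0.741 for Slit1, 0.822 for Robo2 and 0.981 for Slit2. Robo1 and Slit3 had an unadjusted p under 0.05 (0.0124 and 0.0479), 2 of 5, beside 15.5% of all tested genes. DESeq2 and limma voom also called 0 of the 5, with adjusted p of 0.0522 for Slit3 and 0.0602 for Robo1 in DESeq2. Of all their tested genes, DESeq2 called 8.69% and limma voom 2.16%.

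**Figure D1:**
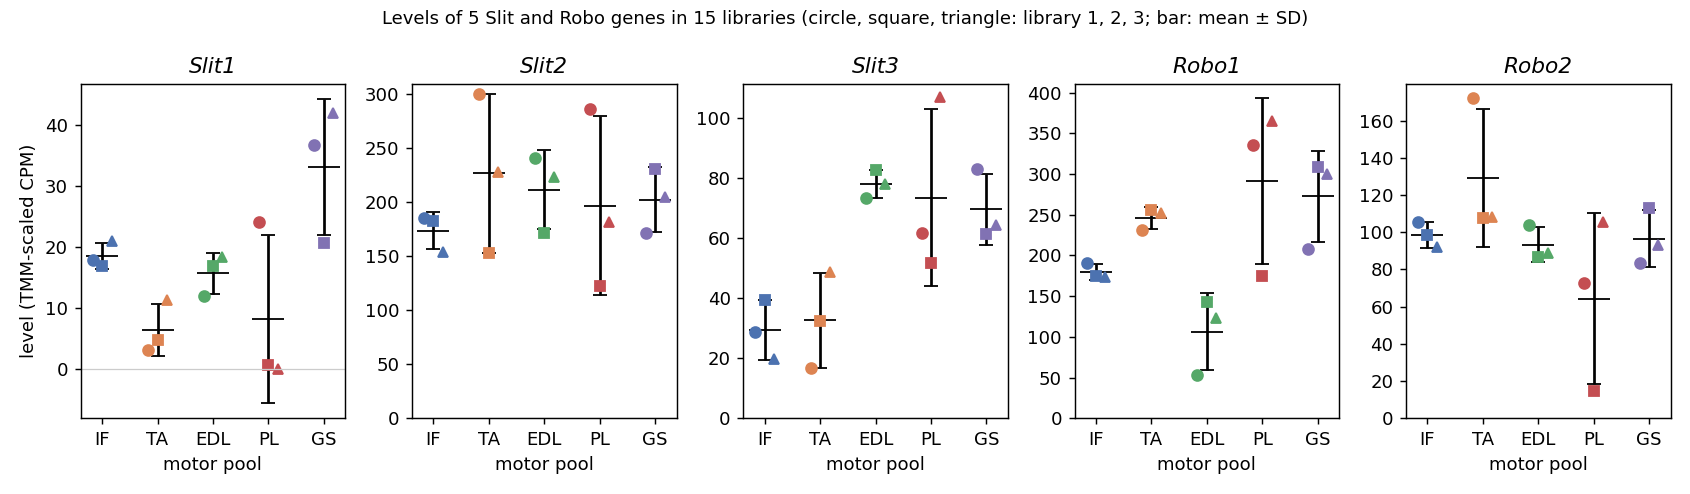
Levels of the 5 genes in TMM-scaled CPM on the vertical axes (1 panel per gene, each with its own scale) against motor pool, with 1 point per library and bars for mean ± SD of 3 libraries. Slit3 lies lower in IF and TA than in EDL, PL and GS, and Robo1 lies lowest in EDL, while Slit2 overlaps in every pair of pools.

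Slit2 encodes the ligand whose role in motor axons is best described. It was read at 185, 182 and 153 CPM in IF, at 299.5, 153 and 227 CPM in TA and at 240.05, 171 and 223 CPM in EDL. PL libraries had 285, 122 and 182 CPM of Slit2, and GS libraries had 171, 231 and 204 CPM. No pair of pools was free of overlap, and the pool means lay close together, from 226 ± 73.5 CPM in TA to 173 ± 17.4 CPM in IF (SD, n = 3). TA stood 0.21 ± 0.29 (SE) above the mean of the other 4 pools on the log2 scale (95% interval -0.39 to 0.82). IF stood at -0.27 ± 0.30 against its other 4 (interval -0.89 to 0.36). Across the 10 pairs of pools the 95% intervals of the log2 difference ran from -1.16 to 0.98. These are separate intervals under the TMM scaling, not adjusted for the number of pairs, so they are no joint bound. On the RPKM scale EDL had the highest Slit2 mean, at 15.3 ± 2.31 RPKM, so the order of the pools for Slit2 depends on the scaling.

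Slit3, the ligand that is also made by many mesenchymal tissues, had lower levels in IF and TA libraries than in the others, without a call after adjustment. IF libraries had 28.7, 39.5 and 19.8 CPM and TA libraries had 16.8, 32.3 and 48.5 CPM. EDL libraries had 73.3, 82.6 and 77.8 CPM, PL libraries had 61.5, 51.7 and 107 CPM, and GS libraries had 82.9, 61.3 and 64.1 CPM. Each of the 6 IF and TA libraries was below each of the 9 others, and neither IF and TA nor any pair among EDL, PL and GS was free of overlap. Means were 29.3 ± 9.85 CPM in IF and 32.6 ± 15.9 CPM in TA, beside 77.9 ± 4.63 CPM in EDL, 73.3 ± 29.4 CPM in PL and 69.4 ± 11.7 CPM in GS (SD, n = 3 each). This grouping of pools was chosen after the Slit3 values were seen and has no test of its own; 0.0628% of tested genes had all 6 IF and TA libraries below the 9 others. On the RPKM scale the sets overlapped through PL 2, at 2.86 RPKM, since IF reached 3.90 RPKM and TA 3.35 RPKM.

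Against the mean of the other 4 pools, the log2 difference of Slit3 was -1.03 ± 0.46 in IF (95% interval -2.001 to -0.06, unadjusted p = 0.0387, edgeR adjusted p = 0.482). It was 0.73 ± 0.41 in EDL (interval -0.13 to 1.59). Of the pairs, IF against EDL gave -1.41 ± 0.55 with an edgeR adjusted p of 0.769, and TA against EDL gave -1.26 ± 0.55 with 0.535. The 6 markers of fibroblasts and meninges summed to 101 to 251 CPM in the 3 EDL libraries and to 6.71 to 108 CPM in the 12 others. That gap was Dcn alone, at 70.9 to 195 CPM in EDL and 0 to 10.2 CPM in the others. The other 5 markers summed to 30.5 to 55.4 CPM in EDL and 6.39 to 108 CPM in the others. At both ends of that last range the sum was mostly Pdgfra, with 90.7 CPM in TA 1 and 6.39 CPM in PL 2. A sum led by 1 gene is a weak measure of these cells. The part of such cells in the Slit3 level was not tested.

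Slit1, in mouse mainly a neural Slit, had the lowest level of the 3 ligands and the widest relative spread. GS libraries had 36.7, 20.6 and 41.9 CPM, IF libraries 17.8, 16.9 and 21.0 CPM, and EDL libraries 11.9, 16.9 and 18.3 CPM. TA libraries had 3.22, 4.88 and 11.3 CPM, each below every IF, EDL and GS value, with TA 3 close to the 11.9 CPM of EDL 1. Taken pair by pair, 17.9% of tested genes had TA below IF without overlap, 9.02% below EDL and 7.39% below GS. The share of genes with all of these at once was not counted. The PL libraries did not resemble each other: PL 1 had 24.2 CPM from 223 reads, PL 2 had 0.639 CPM from 2 reads, and PL 3 had 0 reads, which allows up to 0.662 CPM (3 counts, counting error only). Both low values come from the 2 libraries with few detected genes.

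Means of Slit1 were 33.1 ± 11.1 CPM in GS, 18.6 ± 2.15 in IF, 15.7 ± 3.34 in EDL, 8.26 ± 13.8 in PL and 6.45 ± 4.24 in TA. GS and IF overlapped by a narrow margin, IF overlapped EDL, and PL overlapped all 4 other pools. The log2 difference from the other 4 pools was 1.56 ± 0.89 in GS (95% interval -0.30 to 3.42) and -1.38 ± 1.08 in TA (interval -3.65 to 0.88), with no call in edgeR. A single library decides the PL result: without PL 1, Slit1 in PL differed from the other 4 pools by -5.69 on the log2 scale (edgeR adjusted p = 0.00597), in a comparison that called 22.9% of all tested genes. That fitted size rests on 2 reads in all and depends on the prior count of the fit. With all 15 libraries, the log2 difference of Slit1 in PL from the other 4 pools was -0.91 ± 1.04 (edgeR adjusted p = 0.658). With PL 2 and PL 3 left out instead, that difference was 0.61, of the opposite sign, with PL 1 as the only PL library.

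Robo1, the receptor with the highest level, was lowest in EDL. EDL libraries had 52.8, 143 and 123 CPM, and IF libraries had 191, 175 and 173 CPM. TA libraries had 231, 256 and 253 CPM, GS libraries had 208, 309 and 299.8 CPM, and PL libraries had 336, 175 and 364 CPM. All 3 EDL libraries were below all 12 others, a pattern that 0.237% of tested genes showed. This pool and direction were picked after the Robo1 values were seen, and the pattern has no test of its own. For the other pools and directions, such shares ran from 0.126% (GS below) to 1.88% (IF above), so some pool stands apart in more genes than 0.237%. Means ran from 292 ± 102 CPM in PL over 272 ± 55.7 in GS, 246 ± 13.6 in TA and 179.6 ± 9.81 in IF down to 106 ± 47.2 in EDL. PL, GS and TA overlapped in turn, while TA lay above IF, and IF above EDL, without overlap.

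EDL differed from the mean of the other 4 pools by -1.20 ± 0.33 for Robo1 on the log2 scale (95% interval -1.89 to -0.50). The unadjusted p was 0.00191 and the edgeR adjusted p 0.244, so the difference did not pass the threshold, which 0.0976% of tested genes passed in EDL. PL stood 0.63 ± 0.29 above the other 4 (interval 0.01 to 1.24, edgeR adjusted p = 0.212). The widest pair was EDL against PL, at -1.46 ± 0.39 (interval -2.28 to -0.64, edgeR adjusted p = 0.168). DESeq2 called that pair, with -1.47 and an adjusted p of 0.0181, in a comparison in which it called 4.81% of its tested genes. On the RPKM scale EDL had 2.98, 8.94 and 7.96 RPKM, and PL 2, at 6.15 RPKM, lay among them. On that scale GS was highest, at 15.005 ± 1.09 RPKM, so the order at the top of the Robo1 pools depends on the scaling. EDL 1 is the lowest of all 15 libraries on both scales.

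Robo2, a receptor that shares Slit binding with Robo1, was similar in most libraries. TA libraries had 172, 108 and 108 CPM, IF libraries 105, 98.3 and 91.9 CPM, GS libraries 83.3, 113 and 93.0 CPM and EDL libraries 104, 86.4 and 89.1 CPM. PL libraries had 72.7, 14.7 and 105 CPM. The lowest value was that of PL 2, and 13 of the 15 libraries lay between 83.3 and 172 CPM. TA had the highest mean at 129 ± 37.0 CPM and PL the lowest at 64.2 ± 45.9 CPM. TA lay above IF without overlap, and IF, GS and EDL, with means of 98.6 ± 6.82, 96.5 ± 15.2 and 93.1 ± 9.42 CPM, overlapped. The log2 difference from the other 4 pools was 0.57 ± 0.40 in TA (95% interval -0.27 to 1.41) and -0.69 ± 0.44 in PL (interval -1.60 to 0.23). Neither was called in edgeR, with adjusted p of 0.636 and 0.377. On the RPKM scale IF had the highest Robo2 mean, at 3.75 RPKM.

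**Figure D2:**
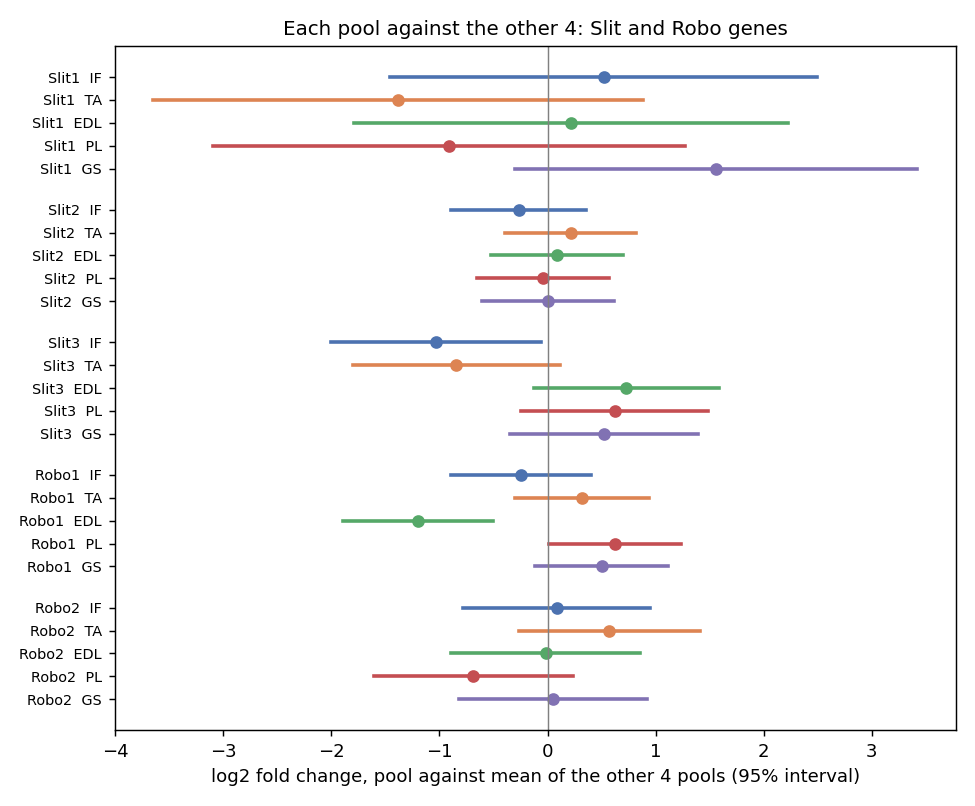
Log2 difference of each pool from the mean of the other 4 pools (horizontal axis) for each of the 5 genes, from the edgeR fit, with bars for 95% intervals that are not adjusted for the number of comparisons. The intervals of Robo1 in EDL (-1.89 to -0.50), Slit3 in IF (-2.001 to -0.06) and Robo1 in PL (0.01 to 1.24) leave out 0, and none of the 25 was called after adjustment.

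Across the 25 comparisons of a gene in a pool with the other 4 pools, edgeR called 0 after adjustment, beside 1.32% of all such comparisons, and 3 had an unadjusted p under 0.05, beside 11.3%. DESeq2 and limma voom also called 0. For these 2 tools the share over all tested genes was counted only in PL, at 12.8% in DESeq2 and 1.19% in limma voom. By pool, the called share of all tested genes was 1.1% in IF, 0.418% in TA, 0.0976% in EDL, 4.87% in PL and 0.126% in GS. Of the 50 comparisons over the 10 pairs, edgeR called 0 (0.248% over all tested genes), limma voom 0 and DESeq2 1, which was Robo1 in EDL against PL. In that pair DESeq2 called 4.81% of its tested genes. Its share over all 10 pairs, and that of limma voom, were not counted. In edgeR 8 of the 50 had an unadjusted p under 0.05, 3 for Robo1 and 5 for Slit3, beside 10.4% over all tested genes. The 3 libraries of one pool lay apart from the 3 of the other in 19 of 50 of these comparisons, beside 18.3% over all tested genes. These were 6 of 10 pairs for Slit3, 6 for Robo1, 4 for Slit1, 3 for Robo2 and 0 for Slit2, and pairs that share a pool share its libraries.

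The make-up of the ligand pool follows from the RPKM of the 3 Slits, given as description only. Slit2 made up most of the summed Slit RPKM in every library, with 51.6% to 91.8%. Its mean share was 80.4 ± 9.89% in TA and 73.0 ± 2.11% in IF, beside 63.7 ± 7.61% in PL, 62.5 ± 5.86% in EDL and 59.5 ± 8.10% in GS. Slit3 held 16.4 ± 8.25% in TA and 16.2 ± 3.93% in IF, beside 33.4 ± 11.9% in PL, 31.0 ± 4.54% in EDL and 27.3 ± 5.20% in GS. Slit1 held 13.3 ± 4.41% in GS and 10.8 ± 2.55% in IF, beside 6.42 ± 1.60% in EDL, 3.21 ± 1.82% in TA and 2.89 ± 4.62% in PL. Shares of 1 sum move against each other, so these are not separate observations.

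On the receptor side, Robo1 exceeded Robo2 per length in 14 of 15 libraries, the exception being EDL 1 with a ratio of 0.880. The RPKM ratio of Robo1 to Robo2 was 0.880, 2.86 and 2.39 in EDL and 3.08 to 3.26 in IF. It was 2.32 to 4.11 in TA, 4.33 to 5.58 in GS, and 8.0, 20.6 and 5.997 in PL, where the 20.6 of PL 2 rests on its low Robo2. Robo2 has the longer deposited model, with 16532 counted bases beside 9547 for Robo1, and RPKM divides by that length. The size of the ratio therefore depends on the gene models. Only the spans of the 2 genes, not these lengths, were compared with RefSeq. The summed Slit RPKM over the summed Robo RPKM was 3.71, 1.87 and 2.39 in EDL, and 0.753 to 1.53 in the 12 other libraries. The EDL ratios were above the 12 others, while neither sum alone set EDL apart. No test was run on this ratio, and no share over other genes stands beside it. Robo1 had its lowest mean and Slit3 its highest mean in EDL, and both enter the ratio, so it is not a separate observation. The Slit sum was 22.5 to 26.9 RPKM in EDL and 7.98 to 26.1 RPKM in the others, and the Robo sum was 6.36 to 12.1 RPKM in EDL and 6.44 to 20.3 RPKM in the others.

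**Figure D3:**
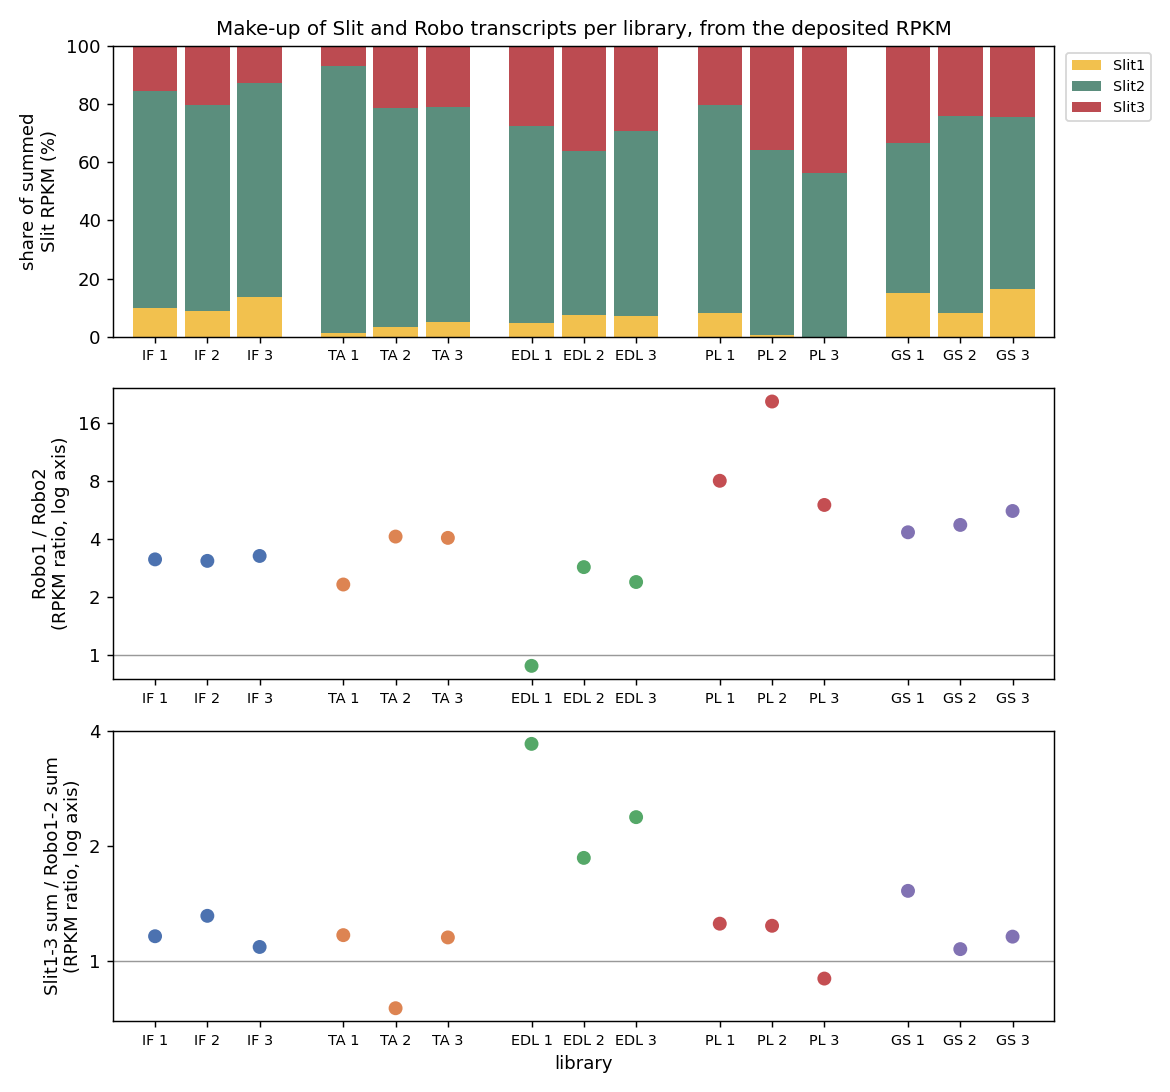
Make-up per library, from the deposited RPKM: the share of Slit1, Slit2 and Slit3 in their sum in percent (top), the ratio of Robo1 to Robo2 (middle, log axis) and the ratio of summed Slit to summed Robo RPKM (bottom, log axis). Slit2 holds 51.6% to 91.8% of the Slit sum, and the 3 EDL libraries have the highest Slit to Robo ratios, from 1.87 to 3.71. No test was run on these shares and ratios.

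Across the 15 libraries no 2 of the 5 genes were closely correlated. Among the 10 pairs of genes, Slit2 and Robo2 had the highest correlation of log2(CPM + 1), with Pearson r = 0.60 and Spearman rho = 0.40. The other 9 pairs had r between -0.21 and 0.30. By rank the largest in size was Slit3 with Robo2, at rho = -0.44. Slit1 with Robo2 changed sign between the measures, with r = 0.30 and rho = -0.34. The points differ in depth and include PL 2 and PL 3, so these are descriptions. By Pearson r, the genes most like Slit1 were Dennd5b (r = 0.95), Cnst (0.94) and Zfp395 (0.94). For Slit2 they were Napg (0.84), Eif5al3-ps (0.83) and Entpd3 (0.82), and for Slit3 Nptxr (0.82), Adam11 (0.82) and Cdc34-ps (0.81). Robo1 was most like Wwp1 (0.86), Cygb (0.85) and Tmem60 (0.84), and Robo2 most like Lclat1 (0.97), Faim (0.96) and Lpcat1 (0.94). Rank correlations were lower for Robo2, at 0.65, 0.66 and 0.48 for those 3 genes.

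The remaining Robo family members were nearly absent or rare. Robo3, which in mammals does not bind Slits with high affinity and acts in commissural axons, had 3 reads in all, in 2 libraries, and was not tested. Robo4, a receptor of endothelial cells, had 162 reads in 6 libraries, of which PL 1 held 100. The 6 endothelial markers summed to 13.1 to 103 CPM in 14 libraries. In PL 2, where 3 of the 6 were read and Cdh5 alone gave 661.5 CPM, Robo4 had 0 reads.

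A list of 38 further symbols covers other ligands, co-receptors and signalling proteins of the pathway, in 39 rows of the table, of which 36 were tested. None of the 36 was called among the 5 pools in edgeR (1.31% of all tested genes were), and 7 had an unadjusted p under 0.05 (15.5% of all tested genes did). DESeq2 called 2 of the 36, beside 8.69% of its tested genes, and limma voom called 0, beside 2.16%. In PL against the other 4 pools, 4 of 36 were called, all higher, where 4.5% of all tested genes were called higher. In the other 4 pools and in the 10 pairs edgeR called 0 of the 36. Unadjusted p was under 0.05 for 5 of the 36 in IF (9.38% of all tested genes), 3 in TA (12.3%), 0 in EDL (6.42%), 11 in PL (22.4%) and 2 in GS (5.82%). The median log2 difference of the list was -0.30 in IF, beside 0.02 for all tested genes. In TA, EDL, PL and GS it was 0.10, 0.11, 0.15 and 0.06, beside 0.06, 0.06, -0.06 and 0.04.

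The 4 called genes act inside the cell. Pak1, a kinase driven by Rac and Cdc42, was at 703, 3003 and 586 CPM in PL and rose by 1.35 ± 0.32 on the log2 scale against the other 4 pools (edgeR adjusted p = 0.0212). Srgap3, a GTPase-activating protein that binds Robo receptors, was at 306, 450 and 1436 CPM in PL and rose by 1.18 ± 0.32 (edgeR adjusted p = 0.0410). Nck1, an adaptor whose fly counterpart links Robo to Pak, was at 20.4, 82.7 and 170 CPM in PL and rose by 2.13 ± 0.58 (edgeR adjusted p = 0.0412). Abl2, a tyrosine kinase whose fly counterpart acts on Robo, was at 26.5, 3.83 and 327 CPM in PL and rose by 3.25 ± 0.89 (edgeR adjusted p = 0.0420). The highest PL value was that of PL 2 for Pak1 and of PL 3 for Srgap3, Nck1 and Abl2. The 12 other libraries spanned 364 to 846 CPM for Pak1, 195 to 479 for Srgap3, 2.32 to 37.6 for Nck1 and 0 to 28.2 for Abl2. Without PL 2 and PL 3 none was called, and the log2 differences were 0.32 for Pak1, -0.076 for Srgap3, -0.037 for Nck1 and 1.07 for Abl2. Marker sums also differed in these libraries, and their part in these levels was not tested. PL 2 had the highest oligodendrocyte sum (2343 CPM, 8 of 9 genes read) and the highest level of Cdh5. PL 3 had the highest sums for inhibitory interneurons (364 CPM, of which Gad2 gave 363.6, with 2 of 5 genes read) and microglia (85.2 CPM, all of it C1qb). PL 2 followed for inhibitory interneurons with 254 CPM, of which Slc6a5 gave 247.5. Motor neuron sums were 3463 to 3577 CPM in the 3 PL libraries and 1663 to 2624 CPM in the 12 others. In the fit without both libraries 0.0628% of all tested genes were called in PL. Pak1 lost its call without PL 2 alone (log2 0.17), Srgap3 and Abl2 without PL 3 alone (0.21 and 0.27), and Nck1 without either (2.16 without PL 2, 1.27 without PL 3). Of 22 alternatives, Pak1 kept its call in 17, Nck1 and Abl2 in 7 and Srgap3 in 6, and with library totals as the scaling none of the 4 was called.

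**Figure D4:**
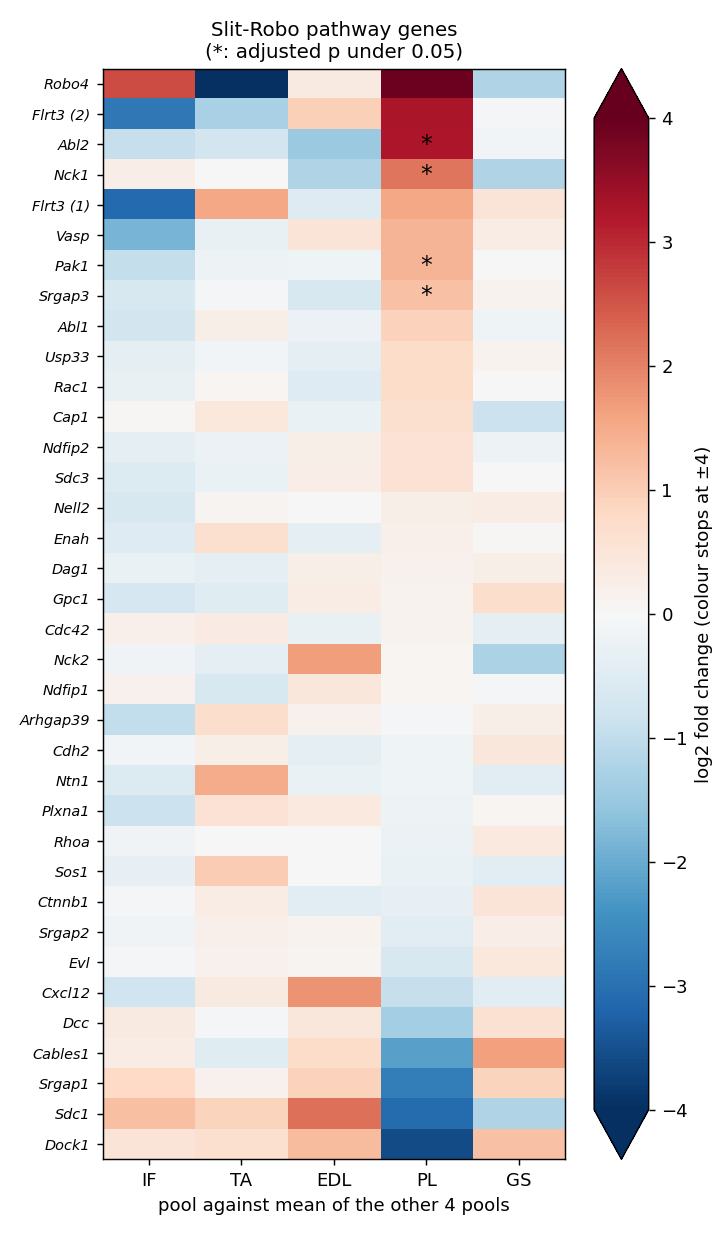
Log2 difference of each pool from the mean of the other 4 pools for 36 tested rows of the pathway list (colour scale, cut at 4 in either direction), ordered by the value in PL, where an asterisk marks an adjusted p under 0.05. The 4 asterisks are all in PL, for Pak1, Srgap3, Nck1 and Abl2.

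Of the 16 lists in the authors' deposited tables, each of genes above another pool, none held a Slit or one of the 2 Robos. The lists did not cover all pairs: none set GS against EDL or PL. The authors' deposited table of genes higher in TA than in IF listed Flrt3, a partner of Robo1 in mouse thalamic axons, with a fold of 0.0757 for IF over TA and an adjusted p of 0.000575. Flrt3 is named because of that table, and neither of its 2 rows was called in edgeR for IF against TA, with log2 differences of -3.72 ± 1.18 and -1.25 ± 1.43 and adjusted p of 0.206 and 0.870.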

How the data were processed

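RNA of laser-captured motor neurons was made into cDNA, tagged with Nextera and read single-end, per the labels' protocols. Nextera does not mark strand, so an overlapping or antisense gene cannot be told apart. Per the submitters' processing notes, reads were aligned with Bowtie 0.12.9 to mm9, and DESeq was used. Which counter and annotation were used is not given in the sources used here. Per gene, the authors deposited raw counts and RPKM. Their deposited lists hold ratios (fold) and p-values. Count cells below 0 (16 cells in 4 genes, with no reason given) took those genes out.

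Levels are TMM-scaled CPM. RPKM was used to compare genes per length, for the Slit and Robo shares, sums and ratios, and as another scale for the order of pools. Of 36810 genes, 14340 passed edgeR's filterByExpr. Tests used edgeR 4.0.16 in R 4.3.3 (glmQLFit, glmQLFTest), 1 coefficient per pool and 15 libraries in 1 fit, with Benjamini-Hochberg adjustment over 14340 genes and a threshold of 0.05. A pool is set against the mean of the other 4 coefficients. Errors are standard errors, and 95% intervals use 18.4 degrees of freedom. The fit was tested on simulated data. No pair of libraries of a pool agreed within counting noise (chi-square at least 11.7 times its degrees of freedom).

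The labels call the libraries biological replicates, and nothing ties one to particular animals, so p-values measure the spread between pooled libraries. Alternatives were DESeq2 1.42.0 and limma voom (limma 3.58.1), other scalings, no filter, libraries left out and a replicate block. The members, gene lists and tests were chosen with earlier results of these data known. All 5 members are described, with the contrasts of the pools with the highest and lowest mean. Pathway genes are named where called. Robo3 and Robo4 are named as the rest of the family. The 3 genes most like each member are those with the highest Pearson r. RefSeq promoters were matched by symbol for Slit2, Slit3, Robo1 and Robo2.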

Additional observations from a re-analysis of the deposited data

How the results depend on the processing

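Robo1 stayed below the other 4 pools in EDL (log2 -1.47 to -0.87) and Slit3 in IF (-1.30 to -0.72) under every alternative. No Slit or Robo was called among the 5 pools or in a pool against the other 4 in any alternative except without PL 1, and none in the pairs except without PL 1 and in DESeq2, which called 1. Leaving out 1 library gave 0 to 1 called among the pools (Slit1 without PL 1, adjusted p = 0.0294), 0 to 1 in the pools and 0 to 5 in the pairs. All of these calls came without PL 1, where 8.77% of all genes were called among the pools, 22.9% in PL and 12.8% in EDL against PL. In the pairs they were Slit1 in PL against each of the other 4 pools and Robo1 in EDL against PL. The called share of all genes was not counted for PL against IF, TA or GS in that fit. Slit2 changed sign in IF with library totals (0.0359) and in TA without TA 1 (-0.0401, with a range up to 0.43 as libraries were left out in turn). Library totals, chosen after seeing the data, moved the median of all genes by 0.30 in IF, -0.18 in TA, 0.13 in EDL and -0.31 in PL on the log2 scale.

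Over all genes, 188 differed among the pools, against 1425 with no filter, 1163 in DESeq2, 310 in limma voom, 106 with library totals and 64 to 1257 when 1 library was left out. Pathway genes called among the pools were 4 with no filter (6.97% of all genes) and 2 in DESeq2 (8.69%), and 0 to 4 when 1 library was left out (0.446% to 8.77%). In PL, 4 were called (4.87% of all genes), against 7 in DESeq2 (12.8%), 0 in limma voom (1.19%), 0 with library totals (1.03%), 0 without PL 2 and PL 3 (0.0628%), and 1 to 9 when 1 library was left out (2.75% to 22.9%). Without PL 2 and PL 3, Srgap3 (-0.0759) and Nck1 (-0.0371) changed sign. The cause was not tested, beyond the change in libraries or genes that each setting makes.

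Same-numbered libraries of different pools correlated at -0.06 to 0.11 in their deviations, with 1 of 30 pairs over 0.1. No pairing by replicate number was thus visible. Whether same-numbered libraries shared animals or a batch cannot be decided this way, and the labels give neither. With the replicate block, 95 genes differed among the pools, 0 pathway genes were called in PL (0.997% of all genes), and 0 Slits or Robos were called (adjusted p from 0.311 for Robo1 to 0.993 for Slit2).

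Few reads limit Slit1 in PL, with 2 in PL 2 and 0 in PL 3. The total count of PL 3, 6779691, lies within the 5488780 to 8411260 of the other pools, while that of PL 2, 4417114, lies below them. The part of depth in these low values was not tested.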
